A study of Mus musculus with 9 samples.

Results

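Genes of the nuclear lamina were followed in blood stem and progenitor cells of young mice, aged mice and aged mice treated with CASIN, a small molecule that inhibits the activity of the RhoGTPase Cdc42. The 9 genes were chosen by symbol from the 31053 genes of the count matrices: the lamins Lmna, Lmnb1 and Lmnb2, the inner nuclear membrane proteins Lbr, Emd, Sun1 and Sun2, the chromatin bridging factor Banf1, and Kat8, an acetylase of histone H4. All 9 passed the filter on low counts in each population of cells described here. Lineage-negative, cKit-positive, Sca1-positive (LSK) cells were sorted from the bone marrow of C57BL/6 mice, stored viably frozen, thawed without culture and profiled by droplet single-cell RNA sequencing, with 3 libraries per group. Young mice were 10 to 12 weeks old and aged mice were over 80 weeks old. CASIN mice were aged mice given 25 mg/kg CASIN in cyclodextrin by intraperitoneal injection every 24 h for 4 days, and both control groups received cyclodextrin alone. The labels do not say whether a library came from 1 mouse or several, so that p-values measure the spread between libraries.

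In the GENCODE M21 annotation of GRCm38 Lmna (ENSMUSG00000028063) lies at chr3:88480147-88509956 on the minus strand, Lmnb2 (ENSMUSG00000062075) at chr10:80901203-80918245 on the minus strand, Lbr (ENSMUSG00000004880) at chr1:181815335-181843046 on the minus strand and Emd (ENSMUSG00000001964) at chrX:74254687-74261548 on the plus strand. Sun1 (ENSMUSG00000036817) lies at chr5:139200637-139249840 on the plus strand, Sun2 (ENSMUSG00000042524) at chr15:79724070-79742536 on the minus strand, Banf1 (ENSMUSG00000024844) at chr19:5364638-5367168 on the minus strand and Kat8 (ENSMUSG00000030801) at chr7:127912516-127925837 on the plus strand. Lmnb1 has the identifier ENSMUSG00000024590.

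The lamina is a meshwork of intermediate filament proteins under the inner nuclear membrane. B-type lamins (Lmnb1, Lmnb2) are held at the membrane by a lipid anchor and are found in nearly all nucleated cells, while A-type lamins, made from Lmna, stiffen the nucleus and rise as cells differentiate or sit in stiff tissues. Lbr ties B-type lamins and heterochromatin to the membrane, emerin (Emd) and Banf1 join membrane, lamin and chromatin, and Sun1 and Sun2 span the inner membrane to link the lamina with the cytoskeleton. Kat8 (also called Mof) acetylates lysine 16 of histone H4, the mark whose uneven distribution in the nucleus is used to describe the epigenetic polarity of stem cells.

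Of 32387 barcodes, 15856 cells were kept, 1112 to 2417 per library, with 17555578 to 35118707 unique molecular identifiers (UMIs) per library. At most 16 barcodes were shared by any of the 36 pairs of libraries. Levels are given as CPM, the UMIs of a gene divided by all UMIs of the same cells and scaled to a common total, and an SD covers the spread between libraries. The genes of the sort were present in all 9 libraries, with Kit at 112 to 225 CPM and Ly6a, which encodes Sca1, at 87.9 to 186 CPM, whereas Cd3e, Cd8a and Ly6g were each below 1 CPM. The mature myeloid list summed to 477 CPM in the library aged 3 and to 74.7 to 154 CPM in the other libraries, the lymphocyte list to 143 to 364 CPM, the red cell list to 376 to 625 CPM and the stromal and endothelial list to 41.3 to 71.8 CPM. In all LSK cells 1 gene of these lists passed the test, Klrb1c, higher in aged and in CASIN cells than in young cells. Of all genes, 4.1% passed for aged and 4.27% for CASIN against young cells. The RNA of Cdc42, the target of CASIN, was at 369 ± 7.36 CPM in young, 390 ± 11.6 CPM in the aged and 367 ± 12.8 CPM in the CASIN cells (SD, n = 3 each), and no pair of groups passed edgeR's quasi-likelihood test (adjusted p = 0.554 for aged, 0.987 for CASIN against aged and 0.863 for CASIN against young).

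The libraries were sequenced in 2 batches that the labels name. Batch 1 held young 1, young 2, aged 1, CASIN 1 and CASIN 2, and batch 2 held young 3, aged 2, aged 3 and CASIN 3. The batches also split by sex genes: Xist, the RNA that silences an X chromosome in females, was at 0.0285 to 0.163 CPM in batch 1 and at 2357 to 2794 CPM in batch 2, while the Y-linked Ddx3y was at 43.6 to 62.8 CPM in batch 1 and had no UMI in batch 2. Batch and this sex difference cannot be told apart. Of all barcodes, 22.9% exceeded the limit of 10% mitochondrial UMIs in batch 1 and 63.8% in batch 2. All fits therefore carry a term for the batch, and values within each batch are given beside the results.

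Lmnb1, a B-type lamin, was higher in cycling than in resting cells of every library. Cells were classed by scores of S-phase and G2/M genes that held none of the 9 genes. In cells with neither score above 0 Lmnb1 averaged 54.4 ± 30.1 CPM (SD, n = 9), in S-scored cells 171 ± 17.9 CPM and in G2/M-scored cells 241 ± 60.2 CPM. The level was higher in both cycling classes than in other cells of the same library in 9 of 9 libraries. The mean ratio was 4.94-fold for G2/M-scored and 3.6-fold for S-scored cells, and 1.67% of the 13642 genes tested in all LSK cells had a larger G2/M ratio. The ratio was not the same in the batches: on the log2 scale it ranged from 2.83 to 3.53 in batch 1 and from 0.79 to 1.47 in batch 2. Both classes contributed: in resting cells Lmnb1 was at 22.6 to 42.1 CPM in batch 1 and at 60.2 to 109 CPM in batch 2, and in G2/M-scored cells at 255 to 318 CPM in batch 1 and at 166 to 199.8 CPM in batch 2. These ratios are a description, since cells of a library share their preparation and cycling cells hold more UMIs.

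**Figure D1:**
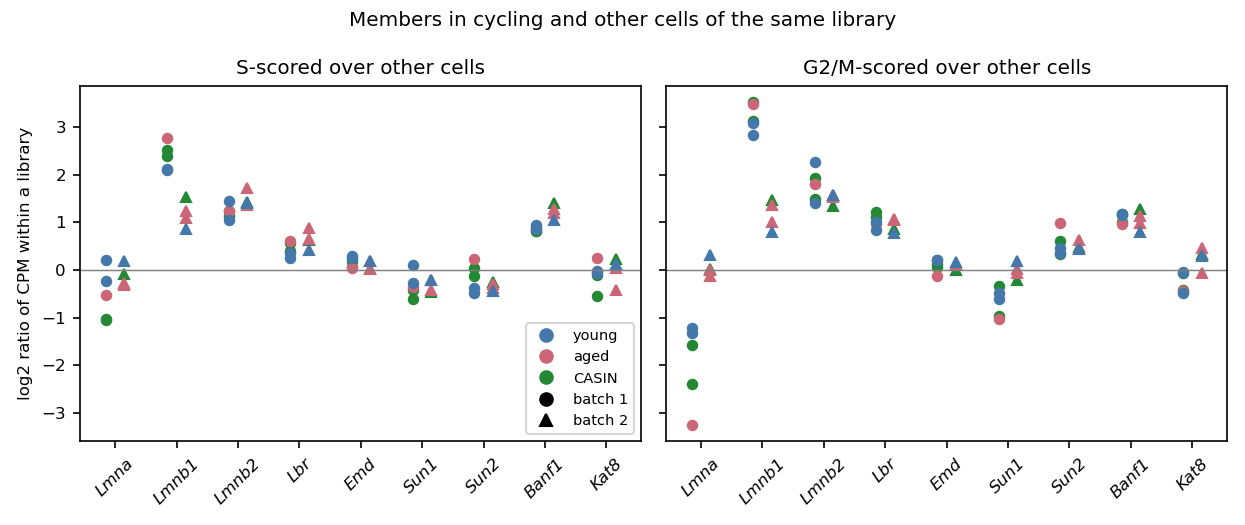
Log2 ratio of the level (CPM) in S-scored (left) and G2/M-scored (right) cells over cells with neither score above 0 in the same library, for each of the 9 genes. Each point is a library, coloured by group, circles for batch 1 and triangles for batch 2. Lmnb1, Lmnb2, Lbr and Banf1 lie above 0 in 9 of 9 libraries in both panels, and the Lmnb1 points of batch 1 lie above those of batch 2.

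Lmnb1 fell with age in cells like haematopoietic stem cells (HSC-like cells), 2 clusters of together 4910 cells in which 10 of 10 HSC markers were detected, 8 of them over 2-fold above other cells in the larger cluster. In young mice it was at 72.9, 59.2 and 106 CPM in the libraries 1 to 3, and in aged mice at 20.9, 59.8 and 65.2 CPM. The library aged 1 was the lowest of these 6, and the other aged libraries overlapped with young 2. Within batch 1, aged 1 lay below both young libraries, and within batch 2 aged 2 and aged 3 lay below young 3. The log2 fold change was -1.05 (SE 0.20), a level 0.484 times that of young cells (edgeR quasi-likelihood test, adjusted p = 0.00664). It was -1.66 within batch 1 and -0.76 within batch 2, and the exact two-sided permutation test, which does not carry the batch, gave p = 0.3. Lmnb1 was the only one of the 9 genes that passed in this comparison, beside 9.54% of 11895 genes in either direction and 2.89% that fell. Without the library aged 1 the change was -0.68 (adjusted p = 0.0495).

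CASIN-treated aged mice had less Lmnb1 in HSC-like cells than young mice. The libraries CASIN 1 to 3 were at 30.1, 21.3 and 38.4 CPM. All 3 were below the lowest young library, so that the groups did not overlap. The exact two-sided permutation test gave p = 0.1, the smallest value that 3 libraries against 3 allow. The log2 fold change was -1.35 (SE 0.19, 0.392 times the young level, edgeR adjusted p = 0.000861), with -1.36 in batch 1 and -1.46 in batch 2. Again 1 of the 9 genes passed, beside 15.4% of 11895 genes in either direction and 6.12% that fell. The difference between CASIN and aged mice did not pass: it was -0.31 with a 95% confidence interval from -0.74 to 0.13 (adjusted p = 0.998), and its sign differed between the batches (0.30 and -0.70). The comparisons of aged and of CASIN cells with young cells share the 3 young libraries.

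The share of cycling cells among HSC-like cells was also higher in young than in aged and CASIN libraries. It was 27.5%, 17.9% and 13.1% in young 1 to 3, 5.03%, 5.97% and 8.4% in aged 1 to 3, and 7.86%, 4.53% and 2.43% in CASIN 1 to 3. Every young library was therefore above every aged and CASIN library in the share of cells with a cycle score above 0. Across the batches the share did not always follow Lmnb1, which was 1.81-fold higher in batch 2 in HSC-like cells. Young 3 and CASIN 3, both of batch 2, had the lowest share and the highest Lmnb1 of their groups. Among the aged libraries the share and Lmnb1 both rose from 1 to 3. Within batch 2 the libraries had the same order in the share and in Lmnb1. Within batch 1 they did too, apart from aged 1 and CASIN 2, which lay close in both (shares of 5.03% and 4.53%). When each cell was thinned to 4000 UMIs before scoring, the shares were 19.0% to 34.3% in young, 9.81% to 11.7% in aged and 5.73% to 14.5% in CASIN libraries. Among HSC-like cells with neither score above 0, Lmnb1 was at 29.97, 28.0 and 87.2 CPM in young, 18.5, 53.4 and 61.5 CPM in the aged and 23.2, 15.6 and 36.2 CPM in the CASIN libraries. In these cells the difference between aged and young cells was -0.49 and no longer passed (adjusted p = 0.118, where 7.11% of 11525 genes passed). The difference between CASIN and young cells was -0.81 and passed (adjusted p = 0.00947, where 10.4% of genes passed). This restriction was added after the data had been seen.

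Genes of other lists also passed in HSC-like cells, where 9.54% of 11895 genes passed for aged and 15.4% for CASIN against young cells. Of the 21 genes of the immediate early and heat shock list, which respond to handling and stress, 13 were higher in aged than in young cells (median log2 fold change 1.03), and 11 were higher and 1 lower in CASIN than in young cells (median 0.60). Of the 5 stromal and endothelial markers tested, 1 was higher and 1 lower in each comparison with young cells, and 1 of 4 mature myeloid markers was lower in CASIN cells. In 1 of 3 lymphocyte markers tested the level was higher in both comparisons. None of these lists had a gene that passed between CASIN and aged cells, and their part in the Lmnb1 result was not tested.

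**Figure D2:**
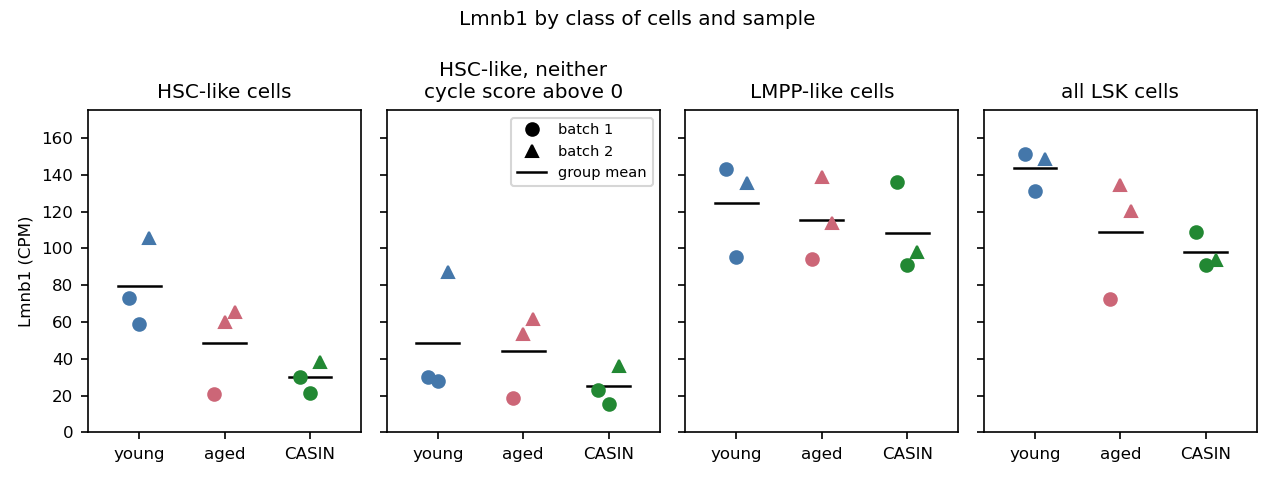
Lmnb1 level (CPM, axis from 0) in HSC-like cells, in HSC-like cells with neither cycle score above 0, in LMPP-like cells and in all LSK cells. Each point is a library (circles batch 1, triangles batch 2) and each line a group mean over 3 libraries. In HSC-like cells the 3 CASIN libraries lie below the 3 young libraries, and in LMPP-like cells the groups overlap.

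Lymphoid-primed multipotent progenitor (LMPP)-like cells were a cluster of 2385 cells led by Dntt in which 6 of 6 LMPP markers were detected. Dntt was the only one of these markers among the genes that led the cluster. LMPP-like cells held more Lmnb1 than HSC-like cells of the same library in 9 of 9 libraries, 116 against 52.6 CPM on average. They also held more cycling cells in every library, 16.2% to 51.6% against 2.43% to 27.5% in HSC-like cells. The part of this share in the differences between the classes was not tested. In LMPP-like cells the young libraries were at 143, 95.2 and 136 CPM. The aged libraries were at 94.2, 139 and 114 CPM and the CASIN libraries at 136, 91.1 and 98.2 CPM, so that all groups overlapped. None of the 9 genes passed in LMPP-like cells, beside 0.207% of 10632 genes for aged and 0.0847% for CASIN against young cells. At an unadjusted p under 0.05 stood 2 of 9 in each comparison, beside 8.7% and 6.32% of all genes. DESeq2 called 0 of 9 in both. The change of Lmnb1 with age was 0.94 lower in HSC-like than in LMPP-like cells on the log2 scale (difference -0.94, SE 0.20, limma on the difference within each library). It did not pass over all genes (adjusted p = 0.177), and none of 10406 genes did, although 1482 had an unadjusted p under 0.05. Lmnb2 gave a difference of -0.65 (adjusted p = 0.241).

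Over all LSK cells Lmnb1 was at 151, 131 and 148 CPM in young, 72.3, 134 and 120 CPM in the aged and 109, 90.8 and 93.9 CPM in the CASIN libraries. Aged 1 was the lowest library, and the 3 CASIN libraries lay below the 3 young libraries. The log2 fold changes against young cells were -0.50 for aged (SE 0.18, adjusted p = 0.155) and -0.57 for CASIN cells (SE 0.17, adjusted p = 0.0942), and neither passed. In sums over a mixed population, fewer cells of a type and less RNA per cell cannot be told apart. The share of cycling cells was 34.0% to 52.8% in young, 22.4% to 37.4% in aged and 19.1% to 32.1% in CASIN libraries, and its part in the sums was not tested. In cells with neither score above 0, called non-cycling here, the change for CASIN against young cells was -0.60 and passed (adjusted p = 0.0427), but the call was lost with the replicate number as a block (adjusted p = 0.0745) and the groups overlapped, at 37.0 to 109 CPM in young and 24.0 to 60.2 CPM in CASIN libraries. It was lost without young 1, young 2, young 3, aged 2, CASIN 2 or CASIN 3 (adjusted p up to 0.203, without CASIN 3). Within cycling cells the differences of Lmnb1 were small, at -0.13 for aged and -0.11 for CASIN against young cells (adjusted p = 0.550 and 0.770).

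**Figure D3:**
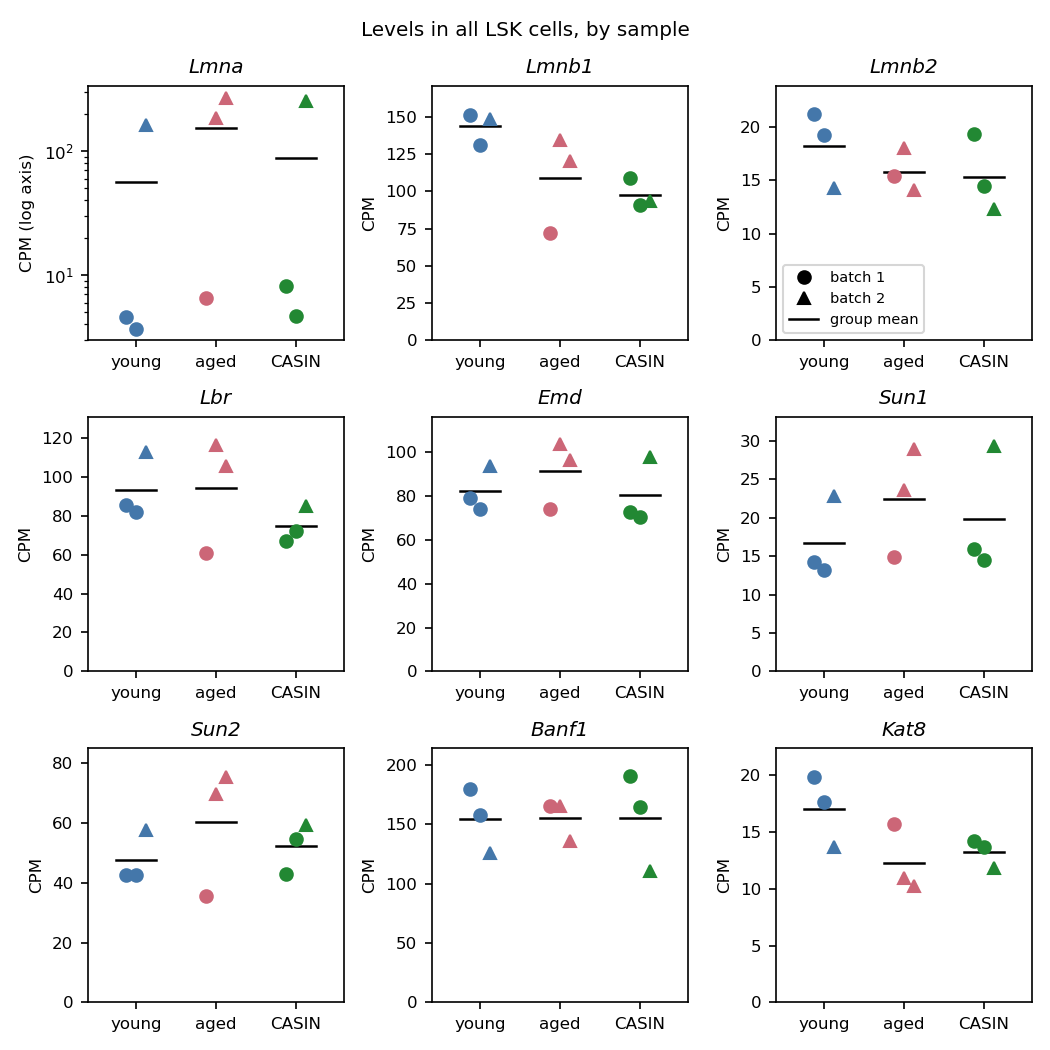
Level (CPM) of each of the 9 genes in all LSK cells, by group. Each point is a library (circles batch 1, triangles batch 2) and each line a group mean over 3 libraries; the axis of Lmna is logarithmic and the others start at 0. The Lmna points of batch 2 (161 to 270 CPM) stand apart from those of batch 1 (3.68 to 8.2 CPM) in every group.

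Lmnb2, the other B-type lamin, followed the cycle like Lmnb1, with less difference between batches. It was at 9.26 ± 1.67 CPM in resting, 23.3 ± 2.81 CPM in S-scored and 29.5 ± 6.52 CPM in G2/M-scored cells (SD, n = 9). The G2/M ratio was 3.16-fold and was above 1 in 9 of 9 libraries, in both batches. In HSC-like cells Lmnb2 was at 15.1, 13.6 and 12.2 CPM in young, 11.3, 8.28 and 7.0 CPM in the aged and 12.8, 9.55 and 8.42 CPM in the CASIN libraries. The aged libraries lay below the young libraries without overlap, but the change was not called (-0.41, SE 0.19, adjusted p = 0.203). The sums behind these levels are small, 161 to 207 UMIs per group. Over all LSK cells the groups overlapped (adjusted p = 0.852 for aged and 0.344 for CASIN against young cells).

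Lmna, the gene of lamins A and C, differed between the batches more than between the groups. In batch 1 it was at 4.58 CPM in young 1, 3.68 CPM in young 2, 6.59 CPM in aged 1, 8.2 CPM in CASIN 1 and 4.68 CPM in CASIN 2. In batch 2 it was at 161 CPM in young 3, 184 CPM in aged 2, 270 CPM in aged 3 and 252 CPM in CASIN 3. No library of one batch came near the other. The batch term was 5.16 on the log2 scale, 35.8-fold, and placed Lmna at rank 80 of 13642 genes by size. Of the 9 genes, 8 passed for the batch in all LSK cells, Lmnb1 being the exception, beside 71.8% of all genes tested, so that a batch difference as such does not set these genes apart. The sizes of the others ranged from 0.711-fold (Kat8) to 1.70-fold (Sun1). Within narrower populations Lmnb1 did pass for the batch (edgeR quasi-likelihood test). It was 1.81-fold in HSC-like cells (adjusted p = 0.000479), 2.65-fold in non-cycling cells (adjusted p = 7.3e-06) and 0.866-fold in cycling cells (adjusted p = 0.0236).

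The distribution of Lmna over cell types also changed with the batch. In batch 1 it was higher in HSC-like cells (7.85 to 11.5 CPM) than in LMPP-like cells (1.85 to 4.64 CPM), in 5 of 5 libraries and with no overlap. In batch 2 HSC-like cells were at 137 to 286 CPM and LMPP-like cells at 155 to 300 CPM. Across the clusters of batch 2 the means lay between 202 and 258 CPM for the 8 clusters measured in all 4 libraries. G2/M-scored cells of batch 1 held 1.76 CPM against 6.82 CPM in resting cells, while in batch 2 the same classes held 224 and 221 CPM. The batch 1 value of G2/M-scored cells is near the floor, from 1 to 12 UMIs per library, against 708 to 955 in batch 2. The low level of batch 1 thus came with a difference between cell types that the high level of batch 2 did not show. Whether handling, sex or sequencing goes with it was not tested.

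Within a batch Lmna was higher in aged and CASIN than in young libraries. In all LSK cells the log2 differences from young cells were 0.67 in batch 1 and 0.49 in batch 2 for aged cells and 0.64 in both batches for CASIN cells. The fitted changes, 0.56 (SE 0.20, adjusted p = 0.148) and 0.62 (SE 0.20, adjusted p = 0.108), did not pass. In non-cycling cells Lmna rose in CASIN against young cells by 0.84 (SE 0.22, adjusted p = 0.0425). There 2 of the 9 genes passed, Lmna higher and Lmnb1 lower, beside 8.78% of 12899 genes in either direction, 6.84% that rose and 1.95% that fell. The young libraries were at 5.43, 3.84 and 148 CPM and the CASIN libraries at 11.1, 6.08 and 254 CPM in these cells, so that each CASIN library was above the young libraries of its own batch. The call was lost without young 1, young 2, young 3, CASIN 1 or CASIN 3 (adjusted p from 0.0846 to 0.173). For aged against young non-cycling cells Lmna was higher by 0.75 without passing (adjusted p = 0.0635), and none of the 9 genes passed beside 7.26% of genes. DESeq2 called 2 of the 9 genes there, Lmna and Lmnb1, and its share over all genes is not given here. With edgeR 5 of 9 had an unadjusted p under 0.05, beside 24.8% of all genes. In non-cycling cells 11 of 21 genes of the handling list were higher in aged and 3 in CASIN than in young cells.

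Lbr, the receptor that binds B-type lamins and heterochromatin and also acts in sterol synthesis, rose towards mitosis. It was at 68.3 ± 13.8 CPM in resting, 99.7 ± 25.9 CPM in S-scored and 135 ± 24.1 CPM in G2/M-scored cells, and higher in both cycling classes in 9 of 9 libraries. Sun2, a SUN-domain protein of the inner membrane, took another course. It was at 52.7 ± 13.1 CPM in resting cells, at 44.4 ± 9.19 CPM in S-scored cells, where 2 of 9 libraries were above resting cells, and at 75.5 ± 17.1 CPM in G2/M-scored cells, where 9 of 9 were (SD, n = 9). Genes expressed in G2 and mitosis often carry CCAAT boxes and a cell cycle homology region (CHR) just upstream of their start. The windows of Lbr and Sun2 are shown, the only ones among those searched with a CHR match. These 250 bases end at the RefSeq start, are written 5′ to 3′ on the strand of the gene (build GRCm38.p6), and have in capitals matches to the CCAAT box (its 5 letters) and to the CHR (TTTGAA or TTCGAA), each searched on both strands. The Lbr window, chr1:181842402-181842651 on the minus strand, lies in introns of 2 longer GENCODE M21 transcripts of Lbr, and the Sun2 window, chr15:79742537-79742786 on the minus strand, overlaps an exon of the noncoding Gm16576 on the other strand.
Lbr: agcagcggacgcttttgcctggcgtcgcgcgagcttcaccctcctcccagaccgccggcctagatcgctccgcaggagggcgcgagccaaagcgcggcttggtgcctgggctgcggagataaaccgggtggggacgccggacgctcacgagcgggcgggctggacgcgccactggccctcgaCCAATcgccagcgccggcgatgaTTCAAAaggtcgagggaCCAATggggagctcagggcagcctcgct
Sun2: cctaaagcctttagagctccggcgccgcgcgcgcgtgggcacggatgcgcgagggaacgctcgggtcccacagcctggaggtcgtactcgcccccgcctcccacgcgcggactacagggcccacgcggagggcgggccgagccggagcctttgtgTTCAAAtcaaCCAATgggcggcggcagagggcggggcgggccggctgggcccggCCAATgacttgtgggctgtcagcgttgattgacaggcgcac
Each window held 2 CCAAT matches and 1 CHR match. For Lbr the CCAAT matches lay 68 and 28 bases and the CHR match 45 bases before the start. For Sun2 the CCAAT matches lay 85 and 41 bases and the CHR match 95 bases before the start. Of 27025 gene windows of this length, 34.5% held CCAAT, 17.4% held a CHR match and 1.82% held at least 2 CCAAT and a CHR match. Among the other genes whose window was searched, Sun1 held 2 CCAAT matches, Emd, Banf1 and Kat8 held 1 each and Lmna and Lmnb2 none, and Banf1 also held 1 match to the E2F letters TTCCCGC, which 3.84% of windows held. None of these other windows held a CHR match. Lmnb2 and Banf1 are among them, though their G2/M ratios were larger (3.16-fold and 2.11-fold, against 1.98-fold for Lbr and 1.44-fold for Sun2). The window of Lmnb1 is not reported here. A match is a description of the letters and not a bound site.

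Neither gene of this pair passed between groups in the main fits. In non-cycling cells Lbr was called lower in CASIN than in young mice by DESeq2 (adjusted p = 0.0226). EdgeR also called it there with DESeq2 size factors (adjusted p = 0.0440), the replicate block (0.0477) or only the 2 groups (0.0311). In all LSK cells it was called in the fit of only the 2 groups (edgeR adjusted p = 0.0230). Some fits without 1 library called it too. Lbr in all LSK cells was at 85.5, 81.9 and 113 CPM in young, 61.0, 116 and 105 CPM in the aged and 66.8, 72.3 and 84.7 CPM in the CASIN libraries. The CASIN libraries were the lowest of their batch except for aged 1. The change for CASIN against young cells was -0.33 (SE 0.12, adjusted p = 0.134), with -0.27 and -0.41 within the batches. Sun2 differed by 0.11 for aged (adjusted p = 0.740) and by 0.13 for CASIN cells (adjusted p = 0.648) against young cells, with batches of opposite sign for aged cells (-0.27 and 0.33).

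Emd and Sun1 differed less between the classes than the B-type lamins. Emd, an X-linked gene whose protein emerin binds lamins and Banf1, was at 80.9 ± 14.0 CPM in resting, 88.9 ± 12.9 CPM in S-scored and 86.6 ± 14.9 CPM in G2/M-scored cells, above resting cells in 9 of 9 libraries for S and 7 of 9 for G2/M. It lay within 70.4 to 79.2 CPM in the 5 libraries of batch 1 and within 93.7 to 104 CPM in the 4 of batch 2, and no comparison of groups came near the threshold (adjusted p = 0.901 for aged and 0.666 for CASIN against young cells). Emd overlaps Gm14686, and Lbr overlaps Gm26004, on the same strand, so that reads could be split within each pair. Sun1, which like Sun2 anchors the cytoskeleton to the nucleus, was lower in S-scored than in resting cells in 8 of 9 libraries, at 17.0 ± 5.12 against 21.2 ± 6.49 CPM. Its log2 ratio of G2/M-scored to resting cells was -1.04 to -0.34 in batch 1 and -0.21 to 0.18 in batch 2. Sun1 was higher in HSC-like cells, at 23.6 CPM there and 16.9 CPM in LMPP-like cells on average, in 9 of 9 libraries. Over all LSK cells it was at 13.2 to 22.8 CPM in young, 14.9 to 29.0 CPM in aged and 14.4 to 29.3 CPM in CASIN libraries, with fitted changes of 0.15 and 0.20 against young cells (adjusted p = 0.481 and 0.287).

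Banf1, the barrier-to-autointegration factor that gathers chromatin and membrane as the nucleus is rebuilt after mitosis, was 2.11-fold higher in G2/M-scored and 2.05-fold higher in S-scored than in resting cells, in 9 of 9 libraries for both. Resting cells held 106 ± 20.5 CPM, S-scored cells 214 ± 22.4 CPM and G2/M-scored cells 224 ± 43.4 CPM. In all LSK cells the means over both batches were 154 ± 27.0 CPM in young, 155 ± 17.1 CPM in the aged and 155 ± 40.7 CPM in the CASIN cells (SD, n = 3 each), and the batches are not held in equal parts by the groups. With the batch term the changes were 0.18 for aged (adjusted p = 0.475) and -0.02 for CASIN cells (adjusted p = 0.933) against young cells and -0.20 for CASIN against aged cells (adjusted p = 0.987). Within batch 2 young 3 was at 126 CPM, aged 2 and aged 3 at 165 and 136 CPM and CASIN 3 at 111 CPM. Within cycling cells it was higher in aged than in young mice by 0.31 (SE 0.09), which did not pass (adjusted p = 0.176). None of the 9 genes passed in cycling cells, beside 0.657% of 12018 genes for aged and 0.316% for CASIN against young cells, and DESeq2 called 0 of 9 in both. At an unadjusted p under 0.05 they were 1 and 2 of 9, beside 14.1% and 8.51% of all genes.

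**Figure D4:**
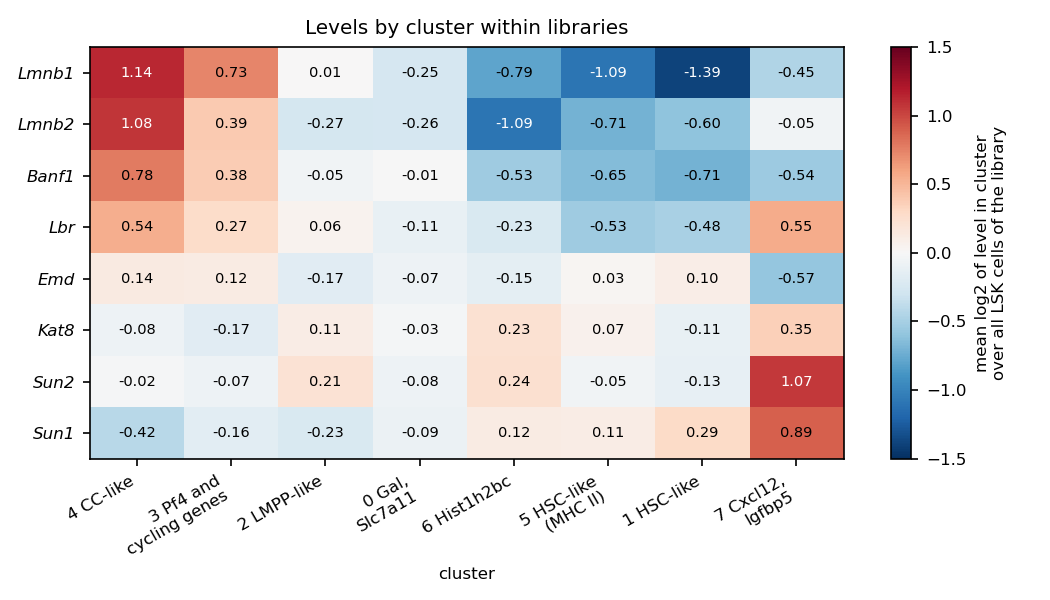
Mean over libraries of the log2 ratio of the level in a cluster to that in all LSK cells of the same library, for 8 genes (rows) in the 8 clusters with 30 or more cells in at least 7 libraries (columns). Red is above and blue below the library's level. Lmnb1, Lmnb2, Banf1 and Lbr are high in the CC-like cluster 4 and low in the HSC-like clusters 1 and 5, and Sun1 and Sun2 are highest in cluster 7; Lmna is left out because of its batches.

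Over the clusters the B-type lamins and Banf1 were highest in cycling cells. In the CC-like cluster of histone-expressing cells (1088 cells, 99.4% of them cycling) the mean log2 ratio to the whole library was 1.14 for Lmnb1, 1.08 for Lmnb2, 0.78 for Banf1 and 0.54 for Lbr. In the larger HSC-like cluster the same genes were at -1.39, -0.60, -0.71 and -0.48. A small unnamed cluster led by Cxcl12 and Igfbp5 (426 cells) had the highest ratios of Sun2 (1.07) and Sun1 (0.89), from sums of 298 and 108 UMIs, and also of Lbr (0.55, SD 0.41, near the 0.54 of the CC-like cluster) and of Kat8 (0.35, from 43 UMIs). Its cells held few UMIs, 0.550 times the median of their own library, and Cxcl12 and Igfbp5 are genes of marrow stroma. The 9 genes had been left out of the features used for clustering, though 5 of them were variable enough to be among these. Neighbouring clusters in the order of a gene often did not differ beyond their spread, as for Lmnb1 in the HSC-like clusters (-1.39 ± 0.50 and -1.09 ± 0.71, SD, n = 9).

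Kat8, the acetylase of lysine 16 of histone H4, was lower in aged and CASIN than in young libraries of the same batch without passing the test. In all LSK cells it was at 19.9, 17.6 and 13.7 CPM in young, 15.7, 10.96 and 10.2 CPM in the aged and 14.2, 13.7 and 11.8 CPM in the CASIN libraries. Young 3, of batch 2, overlapped with batch 1 libraries of the other groups, and within each batch every aged and CASIN library lay below the young ones. The log2 fold change was -0.33 for aged (SE 0.11, adjusted p = 0.133) and -0.37 for CASIN against young cells (SE 0.11, adjusted p = 0.0885). The 95% confidence interval of the difference between CASIN and aged cells was -0.30 to 0.21 around -0.04 (adjusted p = 0.992). Over both batches the mean of Kat8 was similar in the cycle classes, at 14.4 ± 3.56 CPM in resting, 14.0 ± 4.04 CPM in S-scored and 13.7 ± 2.29 CPM in G2/M-scored cells (SD, n = 9). Its log2 ratio of G2/M-scored to resting cells was -0.48 to -0.04 in batch 1 and -0.07 to 0.46 in batch 2. In HSC-like cells the changes were -0.25 and -0.31 for aged and CASIN against young cells (adjusted p = 0.377 and 0.201).

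Over all LSK cells none of the 9 genes passed by edgeR's quasi-likelihood test for aged against young cells (3 of 9 at an unadjusted p under 0.05, beside 22.0% of all genes, and 0 with DESeq2), beside 4.1% of 13642 genes. For CASIN against young cells 0 of 9 passed with edgeR, beside 4.27% of genes. At an unadjusted p under 0.05 stood 4 of 9, beside 24.0% of all genes. DESeq2 called 3 of 9, and its share over all genes is not given here. CASIN against aged cells compares treated with untreated aged mice, but the batches, which also split by sex genes, are unequal in it. Batch 1 holds aged 1, CASIN 1 and CASIN 2, and batch 2 holds aged 2, aged 3 and CASIN 3. This comparison gave 0 of 9 in every population. There the genes called were 0% of those tested in all LSK, non-cycling, cycling, HSC-like and LMPP-like cells, with 439, 387, 871, 338 and 567 genes at an unadjusted p under 0.05, and DESeq2 called 0, 4, 1, 0 and 0 genes. At an unadjusted p under 0.05 stood 1 of the 9 genes, Lbr in LMPP-like cells, at -0.29 (95% confidence interval -0.57 to -0.01, adjusted p = 0.921). In all LSK cells the changes of the 9 genes between CASIN and aged cells lay between -0.20 (Banf1) and 0.06 (Lmna), and the batches agreed in sign for 2 of them.

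**Figure D5:**
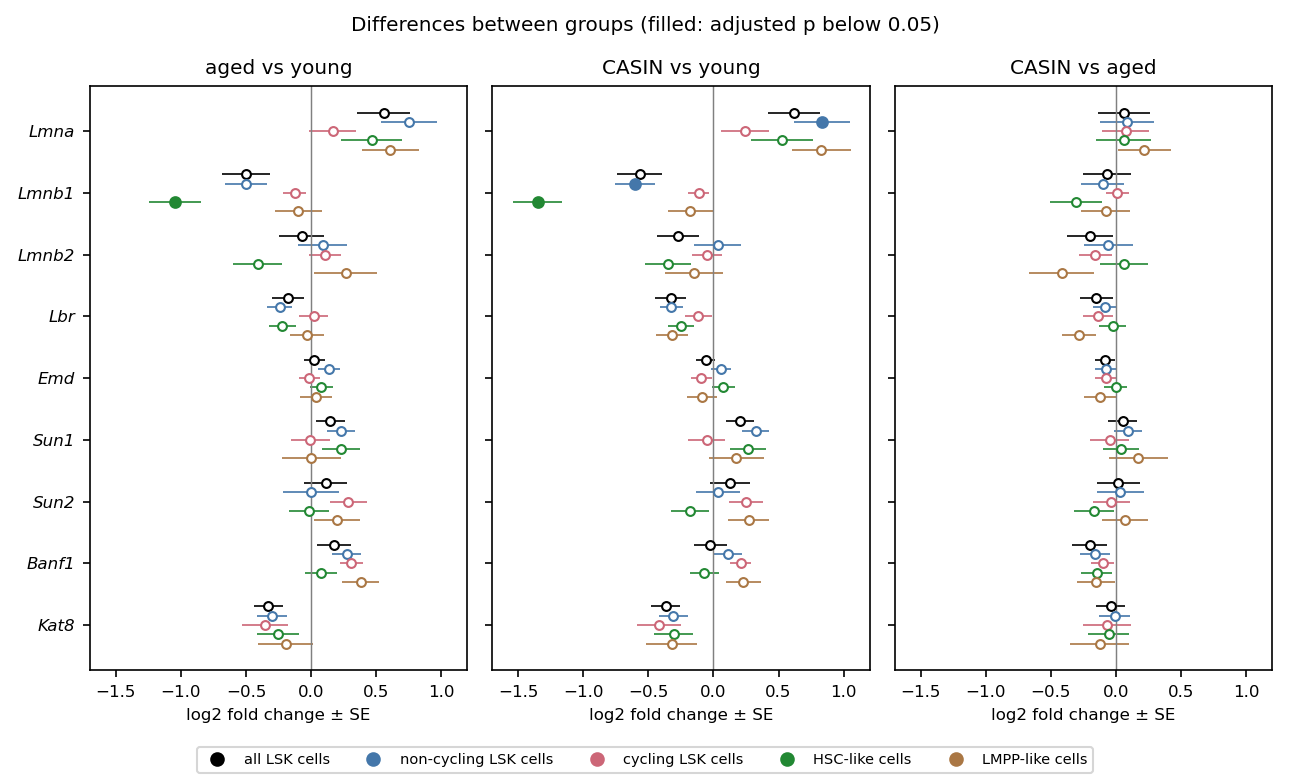
Log2 fold changes (points) with their SE (bars) of the 9 genes in 3 comparisons and 5 populations of cells, from edgeR fits to 9 libraries with a batch term; filled points have an adjusted p below 0.05. The filled points are Lmnb1 in HSC-like cells (-1.05 and -1.35) and, for CASIN against young non-cycling cells, Lmna and Lmnb1; none is filled for CASIN against aged cells.

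Genes that work with the lamina did not pass in all LSK cells. None of 22 partners of the lamins and other envelope genes, 27 nuclear pore genes, 19 genes of H4K16 acetylation and its removal, 12 lamina-bound heterochromatin genes and 15 tested genes of Cdc42 and polarity passed in any of the 3 comparisons (edgeR). At an unadjusted p under 0.05 stood 17 of these 95 genes for aged against young, 0 for CASIN against aged and 18 for CASIN against young cells, beside 22.0%, 3.22% and 24.0% of all genes, and DESeq2 calls were not counted for these lists. Their median log2 fold changes for aged against young cells were -0.01, -0.05, -0.04, -0.18 and 0.11, beside 0.01 over all genes. For CASIN against aged cells the medians were -0.07, -0.05, -0.03, -0.02 and -0.04, beside -0.01. Against young cells the medians of CASIN cells were -0.04, -0.12, -0.07, -0.21 and 0.07, beside -0.0024 over all genes. In all LSK cells 9 of 21 genes of the immediate early and heat shock list were higher in aged than in young cells, with Nr4a1 at 1.78, Fosb at 1.71 and Atf3 at 1.51, and 1 of 21, Jund, was higher in CASIN than in young cells. In these 2 comparisons 4.1% and 4.27% of all genes passed. The immediate early and heat shock list summed to 9393 to 13070 CPM in batch 1 and to 4176 to 8952 CPM in batch 2, and its part in the results on the 9 genes was not tested.

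In HSC-like cells 3 of the 95 genes passed for aged against young cells (9.54% of all genes did) and 7 of 95 for CASIN against young cells (15.4% of all genes did). They are named here after their values were seen. Nrm, the gene of nurim, an inner nuclear membrane protein, was at 42.5, 34.3 and 22.7 CPM in young, 15.5, 13.1 and 11.2 CPM in the aged and 17.7, 15.2 and 8.85 CPM in the CASIN libraries. All aged and CASIN libraries were below all young ones, with log2 fold changes of -1.03 (adjusted p = 0.00254) and -1.21 (adjusted p = 0.000402). Tmpo, which encodes the lamina-associated polypeptides 2, fell in CASIN against young cells by 0.64 on the log2 scale (adjusted p = 0.00412), at 73.8 to 102 CPM in young and 47.1 to 65.5 CPM in CASIN libraries. Cbx1, the gene of heterochromatin protein 1 beta, fell by 0.46 in the same comparison (adjusted p = 0.00324). Prkcz, an atypical protein kinase C of the polarity complex, rose in aged cells by 1.41 (adjusted p = 0.0233) and in CASIN cells by 1.41 (adjusted p = 0.0136). It was at 1.61, 2.13 and 4.65 CPM in young, 6.82, 7.07 and 6.35 CPM in the aged and 8.10, 6.65 and 5.57 CPM in the CASIN libraries. These levels are low, and the groups differed less in batch 2 than in batch 1. For aged against young cells Nup98, a nucleoporin, also rose, by 0.45 (adjusted p = 0.0450). For CASIN against young cells Nup43, another nucleoporin, fell by 0.77 on the log2 scale (adjusted p = 0.0273), Ogt rose by 0.31 (adjusted p = 0.0274) and Arhgap1, a GTPase-activating protein for Cdc42, rose by 0.49 (adjusted p = 0.0201). Arhgap1 overlapped between aged libraries, at 24.5, 26.3 and 24.7 CPM, and CASIN libraries, at 27.2, 24.0 and 28.4 CPM. For CASIN against aged HSC-like cells none of the 95 genes passed, and no other gene tested did. In non-cycling cells 1 of 95 passed for aged against young cells (7.26% of all genes did), Nup98 at 0.50 (adjusted p = 0.0477). For CASIN against young cells 3 passed (8.78% of all genes did), Nrm at -0.60 (adjusted p = 0.0241), Cbx1 at -0.33 (adjusted p = 0.0386) and Nemp1 at 0.58 (adjusted p = 0.0429). In cycling and LMPP-like cells none of the genes of these lists passed with edgeR. The share of cycling cells among HSC-like cells was lower in aged and CASIN than in young libraries. Nrm, Tmpo, Cbx1, Nup43 and Lmnb1 fell in at least 1 of these comparisons. Prkcz, Nup98, Ogt and Arhgap1 rose instead. Lmnb1 was also fitted in HSC-like cells with neither cycle score above 0. It differed there by -0.49 for aged (edgeR adjusted p = 0.118) and by -0.81 for CASIN against young cells (edgeR adjusted p = 0.00947). Such values are not given for the other genes, and the part of the cycling share in their changes was not tested.

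The genes whose levels ran most like those of the 9 genes over clusters and libraries fell along the same lines. Likeness was Pearson's r of log2 CPM over 74 sums of cluster and library, each centred in its library, among 5738 genes, and these points share libraries and depth. For Lmnb1 the closest were Ezh2 (0.954), Nasp (0.938) and Hnrnpab (0.932), and for Banf1 Dut (0.954), Pa2g4 (0.953) and Dtymk (0.952). Lmnb2 ran closest to Dnmt1 (0.856), Rangap1 (0.838) and Suz12 (0.837), and Lbr to Pbrm1 (0.856), Srrm1 (0.855) and Hnrnpa3 (0.855). For Sun2 they were Csnk1a1 (0.842), Atp2b4 (0.809) and Arcn1 (0.805) and for Sun1 Kmt2a (0.791), Taok1 (0.788) and Hook3 (0.785). Emd followed 2410015M20Rik (0.754), Eef1d (0.744) and Ndufa5 (0.718) and Lmna Ell2 (0.689), Iqcb1 (0.646) and St3gal1 (0.645). The highest values for Kat8 were lower, with Klhdc3 (0.488), Il17ra (0.475) and Gpalpp1 (0.475) at the top. Sums per cluster are small for Kat8 and, in batch 1, for Lmna, and their counting error can lower r.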

How the data were processed

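The deposited matrices hold UMI counts per gene and cell barcode, made by the authors with Cell Ranger 3.1.0 from 10x 3′ v3 libraries aligned to mm10 (Ensembl 93). Barcodes with under 10% mitochondrial UMIs, at most 6000 genes and 1000 to 40000 UMIs were kept, with a limit of 0.4 on the residual of genes against UMIs. Scrublet marked 67 cells (0.423%), too few to have worked, so no doublets were removed and leaving out the 6% with the highest scores was tried instead. Libraries were integrated with Seurat 5.3.0 on 3000 features without the 9 genes (35 components, 11 clusters), and clusters were named from fixed markers. Cell cycle classes used 43 S and 50 G2/M genes. UMIs were summed per library and population and tested with edgeR 4.0.16 (quasi-likelihood test, TMM, filterByExpr, batch term, Benjamini-Hochberg adjustment over all genes tested, threshold 0.05). The difference between HSC-like and LMPP-like cells was tested with limma 3.58.1, and DESeq2 1.42.0 was an alternative. The tests were tested on simulated data. The text names the 9 genes, up to 3 genes per list that passed in all LSK cells by size, and the 3 genes most like each of the 9, with further genes marked as chosen after their values were seen. The 9 genes, the lists and the markers were chosen with earlier results of these data known. Other settings covered normalization, the filter on low counts, the batch term, the replicate block, the groups fitted, the mitochondrial limit, doublets, cell classes and each library left out. The CITE-seq libraries were not used here. UMI totals of 17555578 to 35118707 per library set the counting error. This error is largest for Lmna in batch 1 (3.68 to 8.2 CPM) and otherwise for Lmnb2, Kat8 and Sun1.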

Additional observations from a re-analysis of the deposited data

How the results depend on the processing

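No change of the 9 genes that was called, in the main fit or in an alternative, differed in sign between them. Where neither fit called a gene, a change of sign was not counted. Of the counts of the 9 genes past the threshold, 282 were equal or within 1.5 times and 25 moved. A count of 0 in both fits was taken as equal. For CASIN against young cells in all LSK cells the count went from 0 to 3 with DESeq2 (Lmna, Lmnb1, Kat8), 2 without a filter on low counts, 1 with the replicate block (Lmna) and 4 in a fit of only the 2 groups. That fit of the 2 groups called 1778 of all genes, against 582 in the main fit. In non-cycling cells the count of the 9 went from 0 to 2 for aged against young cells with DESeq2. It also went to 2 there without the filter, where 1967 genes passed. For CASIN against young cells it went from 2 to 0 without a batch term and to 0 with a mitochondrial limit of 5%. In HSC-like cells the count went from 1 to 0 without a batch term in both comparisons with young cells. It went to 0 for aged against young cells in cells with neither cycle score above 0 (chosen after seeing the data). In a fit of only the 2 groups it went to 2 for CASIN against young cells, where 1909 genes passed. In LMPP-like cells the count went from 0 to 1 (Lmna) for CASIN against young cells without the filter, where 125 genes passed. It went to 1 with the replicate block for aged and for CASIN against young cells. For the other settings the genes past the threshold are given below as ranges only. The replicate numbers do not pair the libraries, since number 2 spans both batches: of 9 same-numbered pairs 7, each within a batch, correlated at 0.73 to 0.89 and the 2 across batches at -0.61 and -0.60. With the block 2 genes still passed for CASIN against young non-cycling cells, but Lmnb1 was lost (adjusted p = 0.0745) and Lbr passed. Leaving out 1 library gave 0 to 3 for CASIN against young cells in all LSK cells (3 without aged 1), 0 to 1 for aged and 0 to 3 for CASIN against young non-cycling cells, 1 in both HSC-like comparisons with young cells and 0 elsewhere. Genes past the threshold ranged from 0 to 1157 (560 as reported) for aged and 0 to 1778 (582) for CASIN against young cells in all LSK cells, from 1 to 1967 (937) and 2 to 2209 (1133) in non-cycling, 0 to 669 (79) and 0 to 325 (38) in cycling, 11 to 1224 (1135) and 15 to 1909 (1832) in HSC-like and 0 to 219 (22) and 0 to 125 (9) in LMPP-like cells, with the lowest always without a batch term. For CASIN against aged cells they reached 56 in non-cycling, 227 in cycling and 91 in LMPP-like cells without the filter. Leaving out 1 library gave 306 to 1409 and 879 to 2202 genes in HSC-like cells, the lowest without aged 1 and without CASIN 3. The causes were not tested.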
